A study of Homo sapiens with 6 samples.

Results

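The 10 HES and HEY genes (HES1 to HES7, HEY1, HEY2 and HEYL) were examined for peaks of MYT1L and of IgG in the gene body or within 5 kb of either end. They were chosen by name from the RefSeq gene table of GRCh38.p14, where they are 10 of 20033 protein-coding genes on chromosomes 1 to 22, X and Y. The data are 6 CUT&RUN libraries of H1, a human embryonic stem cell line, collected at day 30. In CUT&RUN an antibody tethers a nuclease to chromatin, and the DNA it releases is sequenced. In 4 libraries the antibody was against MYT1L, and in 2 it was IgG, which has no chromatin target and gives the background. All 6 libraries are labelled wild type, with no other genotype or treatment. The design text names the cells as cortical interneurons made from the stem cells, while the sample labels give embryonic stem cells as cell type and a range of passages. The files hold occupancy and no expression, so the cell type was not checked against markers. Nothing states that the libraries came from separate cultures, so the spread between them may be technical.

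HES and HEY proteins are basic helix-loop-helix repressors. On Notch activation, the cleaved receptor joins the DNA-binding protein RBPJ at the promoters of several of their genes and switches those on. In the developing brain HES1 and HES5 keep progenitors undifferentiated by repressing proneural genes. MYT1L is a zinc-finger factor of neurons, known to bind the core sequence AAGTT and to repress genes of other fates, with Hes1 among its described targets in mouse.

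The promoters are shown because the members differed in whether MYT1L peaks lay over them. The 250 bases before the start of 9 members and of PANK4, a neighbour of HES5, were read from the RefSeq promoter table (GRCh38.p14). HEY1 has no entry there. Capitals mark AAGTT and TGGGAA, the core that RBPJ recognises, in either orientation (AACTT and TTCCCA on the other strand). The first sequence was overlapped by peaks of all 4 MYT1L libraries, the second holds the most marked motifs but was overlapped by no peak, and the third is the promoter of the best-known neural Notch target. The fourth lies in the one region that several libraries shared near HES5, where the peak of replicate 4 alone reaches over these bases and those of replicates 1 and 3 end at lower coordinates, at 2526593 and 2526539.
HEY2 (chr6:125749382-125749631, plus strand): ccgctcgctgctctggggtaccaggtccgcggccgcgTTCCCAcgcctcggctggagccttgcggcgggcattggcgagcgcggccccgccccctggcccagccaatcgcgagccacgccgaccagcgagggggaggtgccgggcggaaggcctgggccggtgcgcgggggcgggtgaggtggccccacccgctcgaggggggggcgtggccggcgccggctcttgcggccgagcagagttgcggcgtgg
HES1 (chr3:194135898-194136147, plus strand): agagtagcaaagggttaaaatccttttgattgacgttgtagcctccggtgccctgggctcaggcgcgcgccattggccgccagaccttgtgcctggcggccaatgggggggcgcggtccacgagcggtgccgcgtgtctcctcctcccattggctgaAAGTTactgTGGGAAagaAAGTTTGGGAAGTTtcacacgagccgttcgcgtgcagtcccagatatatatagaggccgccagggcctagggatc
HES5 (chr1:2530264-2530513, minus strand): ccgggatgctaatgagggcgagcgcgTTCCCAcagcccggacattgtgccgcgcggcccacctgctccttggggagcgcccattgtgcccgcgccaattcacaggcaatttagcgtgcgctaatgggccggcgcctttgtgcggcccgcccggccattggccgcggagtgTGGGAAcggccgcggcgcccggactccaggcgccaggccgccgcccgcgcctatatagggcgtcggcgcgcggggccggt
PANK4 (chr1:2526597-2526846, minus strand): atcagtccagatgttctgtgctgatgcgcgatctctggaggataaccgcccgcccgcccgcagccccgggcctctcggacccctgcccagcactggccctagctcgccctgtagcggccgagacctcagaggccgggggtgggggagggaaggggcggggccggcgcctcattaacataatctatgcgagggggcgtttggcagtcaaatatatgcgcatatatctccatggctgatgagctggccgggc

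TGGGAA occurred in 6 of 9 member promoters, against 20.2% of the 15842 promoters of protein-coding genes with the same length of 250 bases. HES1, HES5 and HEYL held it 2 times each, and HES3, HES4 and HEY2 once. In HES1 the matches began 84 and 70 bases before the start, and in HES5 they began 224 and 80 bases before it. AAGTT occurred in 1 of 9 member promoters, that of HES1, and in 26.4% of all promoters. HES1 held it 3 times, beginning 93, 75 and 66 bases before the start, and the last match shares bases with a TGGGAA. HEY2, whose promoter had a peak of every MYT1L library, held no AAGTT in these bases. Among the 2617 promoters that peaks of all 4 MYT1L libraries overlapped, 15.9% held AAGTT. The E box CANNTG and the N box CACNAG (or CTNGTG on the other strand), which bHLH proteins recognise, were each found in 3 of 9 member promoters. All promoters held them in 57.8% and 30.5% of cases. The G and C content of the member promoters had a median of 74.8% (range 59.2% to 79.6%), against 62.4% over all promoters. Among the 2617 promoters that peaks of all 4 MYT1L libraries overlapped, its median was 68.4%. None of these motif shares was adjusted for G and C content.

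Every one of the 10 genes had a MYT1L peak in at least 1 library, and none had an IgG peak. MYT1L replicate 1 had a peak at 6 members, replicate 2 at 5, replicate 3 at 5 and replicate 4 at 10, a mean of 6.5 ± 2.38 (SD, n = 4). Of all protein-coding genes, the same libraries had a peak at 68%, 43%, 57.3% and 77.6%. IgG replicates 1 and 2 had a peak at 1.61% and 2.9% of all genes, and either of them at 4.16% (2.53% of the 7975 genes no longer than HEYL, the longest member at 16209 bp). A count of 0 of 10 members is thus near the IgG background. At least 1 MYT1L library had a peak at 84.1% of all genes. Among the genes no longer than HEYL this share was 72.6%. The members' count is therefore near the background of genes.

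The libraries differ in depth, which bears on the IgG result. For at least 99.9% of the peaks of each list, the deposited fold and −log10 p correspond to a whole number of overlapping fragments (the pileup) over a background, under the formulas of the peak caller MACS2. The genome-wide background so estimated was 1.18, 0.421, 1.05 and 0.895 overlapping fragments in MYT1L replicates 1 to 4, and 0.329 and 0.19 in IgG replicates 1 and 2. The MYT1L lists held between 12310 and 30086 peaks on the chromosomes and the IgG lists 976 and 998. When the member peaks were reduced to the depth of IgG replicate 1, an expected 0.688, 2.54, 1.71 and 5.39 members kept a peak in MYT1L replicates 1 to 4. With IgG replicate 2 as the target depth, 0.282, 0.681, 0.747 and 2.94 members were expected to keep one. Most of the member peaks would thus not have been detectable in a list as shallow as the controls. Antibody and depth cannot be told apart at those members.

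**Figure D1:**
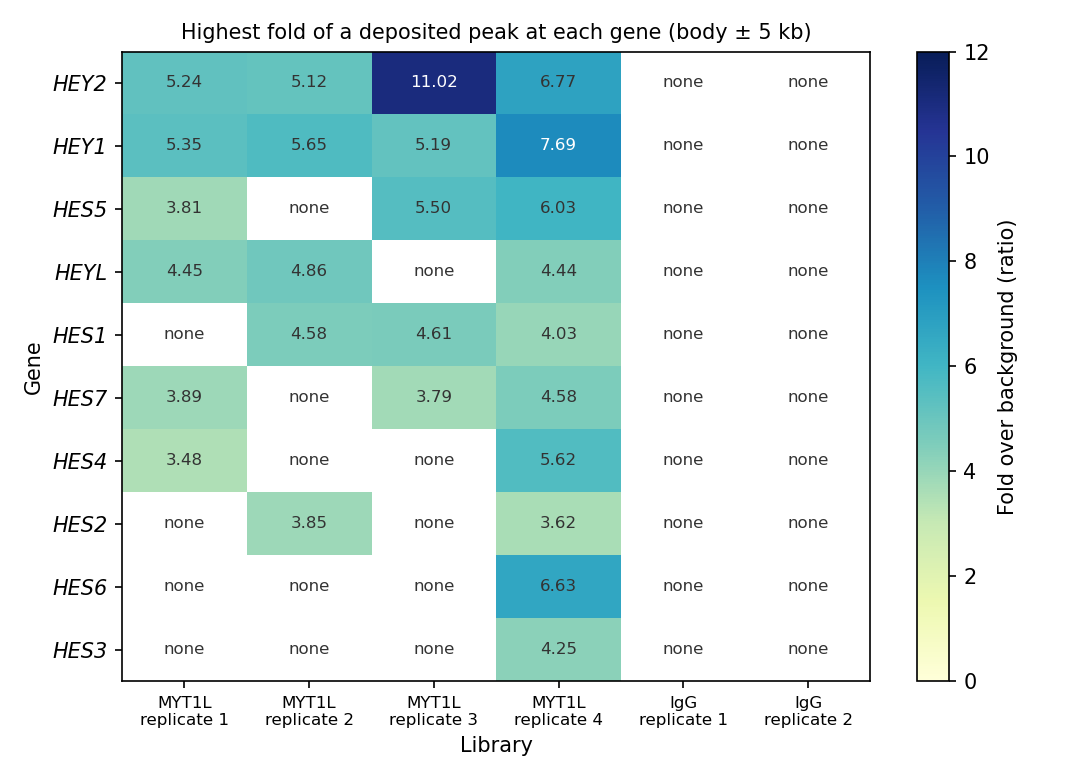
Highest fold over background of a deposited peak at each gene (rows) in each library (columns), where "none" means that no peak lay in the gene body or within 5 kb. HEY2 and HEY1 have a value in all 4 MYT1L libraries, the 2 IgG columns are empty, and MYT1L replicate 4 is the one library with a value at all 10 genes.

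HEY1 and HEY2 were the members with a peak in all 4 MYT1L libraries. Both encode repressors best known from the heart and vessels that also act in neural progenitors. HEY2 (gene ID 23493, chromosome 6, 125749632 to 125761269) had a highest fold over background, as the authors' peak caller gave it, of 5.24, 5.12, 11.0 and 6.77 in MYT1L replicates 1 to 4. Replicate 3 stood highest, with a pileup of 23 fragments over a local background of 1.18, and that peak ranked at the 98.3 percentile of its list by fold. The other 3 peaks ranked at the 61.3, 36.1 and 66.6 percentile in replicates 1, 2 and 4. The mean was 7.04 ± 2.76 (SD, n = 4), and without replicate 3 the 3 remaining values lie between 5.12 and 6.77.

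The 4 HEY2 peaks formed 1 region from 125749222 to 125749903, across the gene's start. Their summits lay 151, 99, 75 and 88 bp before the start in replicates 1 to 4, within 76 bp of each other. The same region holds a start of HEY2-AS1, a noncoding gene on the opposite strand, and its mean summit lay 103 bp before the start of HEY2 and 104 bp before that of HEY2-AS1. The peaks cannot be assigned to one of these promoters. MYT1L replicate 4 had a second, weaker peak in the gene body, 9962 bp after the start (fold 4.22).

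HEY1 (gene ID 23462, chromosome 8, 79764010 to 79767767) had a highest fold of 5.35, 5.65, 5.19 and 7.69 in MYT1L replicates 1 to 4. The values of replicates 1, 2 and 3 lie close together and replicate 4 is above them. The mean was 5.97 ± 1.16 (SD, n = 4). The peaks formed a region from 79767431 to 79768707 over the higher-coordinate end of the gene, with summits 335, 428, 294 and 259 bp from that end. The region also overlaps LINC01607, a noncoding gene. In replicate 4 the pileup at the summit was 51 fragments, the highest of all 35 member peaks. A second region inside HEY1, from 79765260 to 79765668, had peaks in replicates 3 and 4, with folds of 5.02 and 4.33.

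Both genes had every MYT1L value above both IgG lists, as did 31.3% of all protein-coding genes. The exact permutation test over the 15 ways to assign the labels (two-sided) gave p = 0.133 for each, the smallest this design allows, with an adjusted p of 0.426 over all 20033 genes. None of those genes can pass 0.05 in this design. A HEY2 peak as strong as those seen would have had a chance of 0.123, 0.526, 0.891 and 0.514 of being listed at the depth of IgG replicate 1, going through MYT1L replicates 1 to 4. For HEY1 these chances were 0.294, 0.900, 0.263 and 0.994. At the depth of IgG replicate 2 the highest chance was 0.405 for HEY2 and 0.784 for HEY1.

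**Figure D2:**
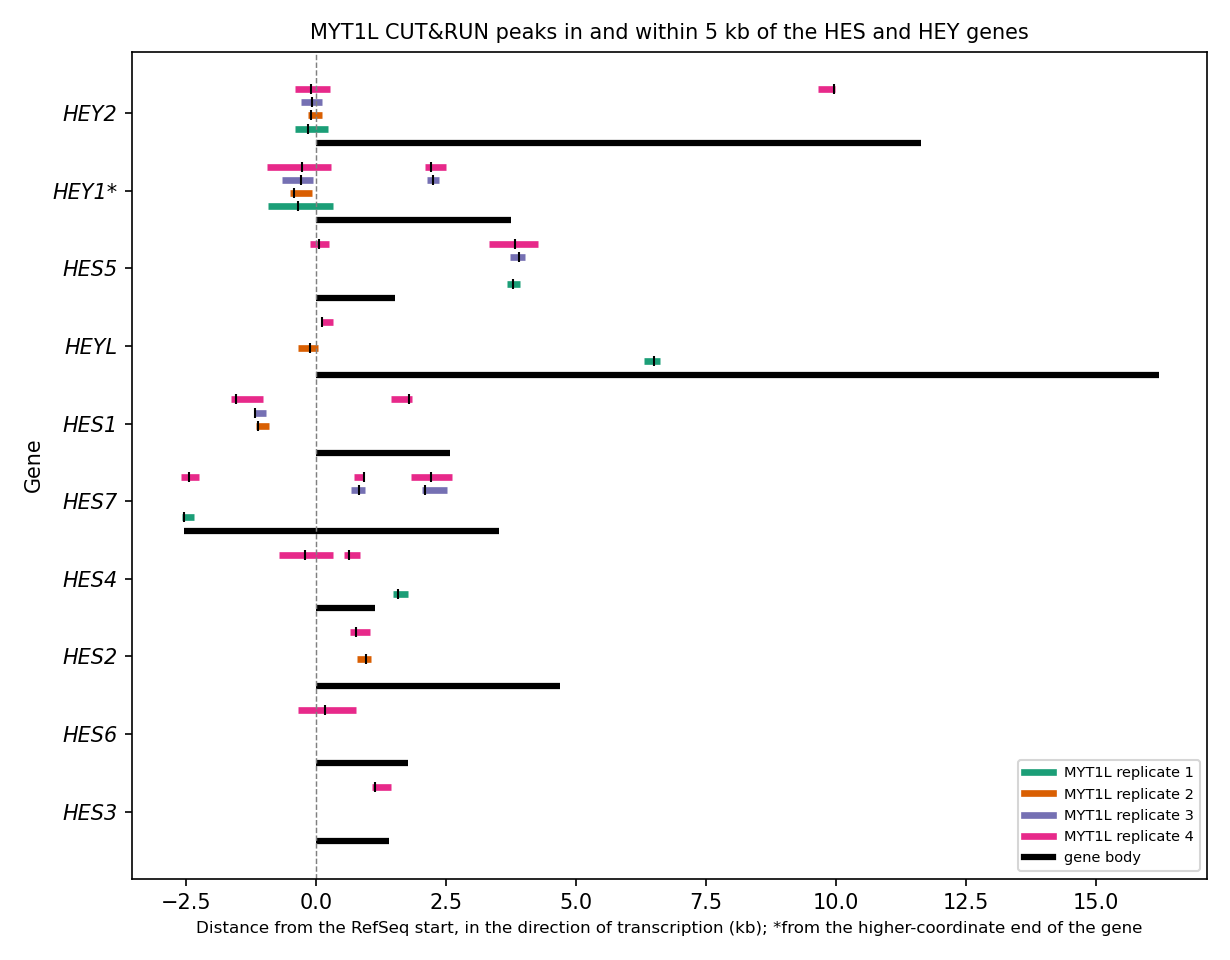
MYT1L peaks (coloured bars, 1 row per library, with black ticks at the summits) along each gene (black bar), by distance in kb from the RefSeq start in the direction of transcription, or for HEY1 from its higher-coordinate end. HEY2 and HEY1 each have bars of all 4 libraries near 0, with 1 and 2 further bars inside the gene, HES1 has bars of 3 libraries before the start and 1 bar inside the gene, HES5 has bars of 3 libraries past the end of the gene and 1 bar at the start, and HEYL has bars of different libraries in different places.

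HES1 and HES5, the main Notch effectors of neural progenitors, each had a region shared by 3 of the 4 MYT1L libraries, but not over the promoter. HES1 (gene ID 3280, chromosome 3, 194136148 to 194138732) had a highest fold of 4.58, 4.61 and 4.03 in MYT1L replicates 2, 3 and 4 and no peak in replicate 1. The value of replicate 4 came from a peak in the gene body, 1782 bp after the start. The shared region ran from 194134507 to 194135238, with summits 1107, 1163 and 1543 bp before the start in replicates 2, 3 and 4. Its fold was 4.36 ± 0.419 (SD, n = 3). No peak of any library touched the promoter window with the 3 AAGTT matches, which ends 50 bases after the start.

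The HES1 peaks were weak. The pileups in the shared region were 8, 12 and 23 fragments in replicates 2, 3 and 4, and the folds ranked at the 15.3, 30.2 and 8.68 percentile of their lists. MYT1L replicate 1, which had the highest estimated genome-wide background of the 4, had none. The shared region was lost when only peaks with a −log10 q of at least 5 were kept. It was also lost when summits were joined only where neighbouring ones lay within 200 bp. The summits span 436 bp. That of replicate 4, at 194134605, lay more than 200 bp from the next, at 194134985 in replicate 3.

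HES5 (gene ID 388585, chromosome 1, 2528745 to 2530263) had a highest fold of 3.81, 5.50 and 6.03 in MYT1L replicates 1, 3 and 4 and none in replicate 2. These 3 peaks formed a region from 2526000 to 2526928 with a fold of 5.11 ± 1.16 (SD, n = 3). The region lies past the end of HES5, with a mean summit 3842 bp after the gene's start. It holds the start of PANK4, which encodes a pantothenate kinase family protein, and its mean summit lay 175 bp after that start. The HES5 region is therefore nearer to PANK4 than to HES5, and it falls outside a window of 1 kb around HES5. Like that of HES1, it was no longer shared by 3 libraries with a −log10 q of at least 5 or with MYT1L lists of equal length. At the start of HES5 itself MYT1L replicate 4 alone had a peak, with its summit 52 bp after the start and a fold of 2.78, at the 0.537 percentile of its list. Leaving out regions nearer to another protein-coding gene, a choice made after the data were seen, reduced the members with a shared region to 3, namely HES1, HEY1 and HEY2. The share of all genes under this choice was not computed, so the count has no background to be read against.

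HES7 and HEYL had peaks in 3 MYT1L libraries that did not form 1 shared region. HES7, an oscillating repressor of the segmentation clock (gene ID 84667, chromosome 17, 8120592 to 8126634), had a highest fold of 3.89, 3.79 and 4.58 in MYT1L replicates 1, 3 and 4. Its 6 peaks fell into 3 regions of 2 libraries each. Those from 8121496 to 8122274 and from 8123163 to 8123438 had peaks in replicates 3 and 4. The third, from 8126346 to 8126705, had peaks in replicates 1 and 4 and lies at the higher-coordinate end of the gene model, 2482 bp before the start that the promoter table gives. Several transfer RNA genes lie within 5 kb of each of the first 2 HES7 regions, and 1 within 5 kb of the third.

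HEYL (gene ID 26508, chromosome 1, 39623435 to 39639643) had a highest fold of 4.45, 4.86 and 4.44 in MYT1L replicates 1, 2 and 4. These 3 peaks lay in 3 places. The summit of replicate 2 was 122 bp before the start, that of replicate 4 was 109 bp after it, and that of replicate 1 was 6496 bp inside the gene. The similar folds of HEYL thus come from different sites. Counting libraries per gene gives 6 members with a peak in at least 3 MYT1L libraries (56.8% of all genes, 39.3% of genes no longer than HEYL). Asking for 1 shared region leaves 4.

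HES4, HES2, HES6 and HES3 had the fewest libraries. HES4 (chromosome 1, 998964 to 1000097) had a fold of 5.62 in MYT1L replicate 4, from a peak of 1028 bp across its start with a pileup of 46 fragments. In replicate 1 it had a fold of 3.48 beyond the other end of the gene, so these libraries did not share a site. HES2 (chromosome 1, 6415232 to 6419919) had overlapping peaks in replicates 2 and 4, with folds of 3.85 and 3.62 and summits 957 and 766 bp after the start. HES6, which antagonises HES1 and promotes neuronal differentiation (chromosome 2, 238238267 to 238240038), had a peak in replicate 4 alone. It had a fold of 6.63, spanned 1116 bp across the start, and held 31 fragments at the summit. HES3 (chromosome 1, 6244179 to 6245578) also had a peak in replicate 4 alone, with a fold of 4.25 and a summit 1133 bp after the start. For HES6 and HES3 there is no replicate of the value.

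Across the members the order by highest fold, averaged over the 4 MYT1L libraries with 0 where no peak was listed, was HEY2, HEY1, HES5, HEYL, HES1, HES7, HES4, HES2, HES6 and HES3. Averaged over the libraries with a peak, the means were 7.04 for HEY2, 5.97 for HEY1, 5.11 for HES5 and 4.58 for HEYL. They were 4.41 for HES1, 4.09 for HES7, 4.55 for HES4 and 3.74 for HES2. From HEY2 to HES2 no 2 neighbours in this order differed by more than the larger of their SDs, which ran from 0.161 for HES2 to 2.76 for HEY2. By −log10 q in place of fold, HEY1 came first and HEY2 second, and HES4 replaced HEYL among the first 4. The place of HES5 in both orders rests on the region at the start of PANK4. At the start of HES5 itself the fold was 2.78, in MYT1L replicate 4 alone. Genes no longer than HEYL with peaks in 4 MYT1L libraries had a median of 6.45 for the same mean (quartiles 5.62 and 7.34), and HEY2 and HEY1 lie within these quartiles. With peaks in 3 libraries the median was 5.69 (quartiles 5.02 and 6.57), and HES1, HES7 and HEYL lie below the lower quartile.

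The members held 35 MYT1L peaks in 20 regions, none of which overlapped an IgG peak. A single library made up 11 of these regions, 2 libraries shared 5, 3 libraries shared 2 and all 4 shared 2. MYT1L replicate 4 contributed 17 of the 35 peaks and was the sole library in 8 of the 11 single-library regions. A region in at least 3 libraries was found at 4 of 10 members, against 50.3% of all protein-coding genes and 35% of those no longer than HEYL. A region in all 4 was found at 2 of 10, against 27.1% and 16.4%. With 2 libraries sufficing, HES2 and HES7 joined the list, which made 6 of 10 against 67.3% of all genes. These shares are near the background.

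**Figure D3:**
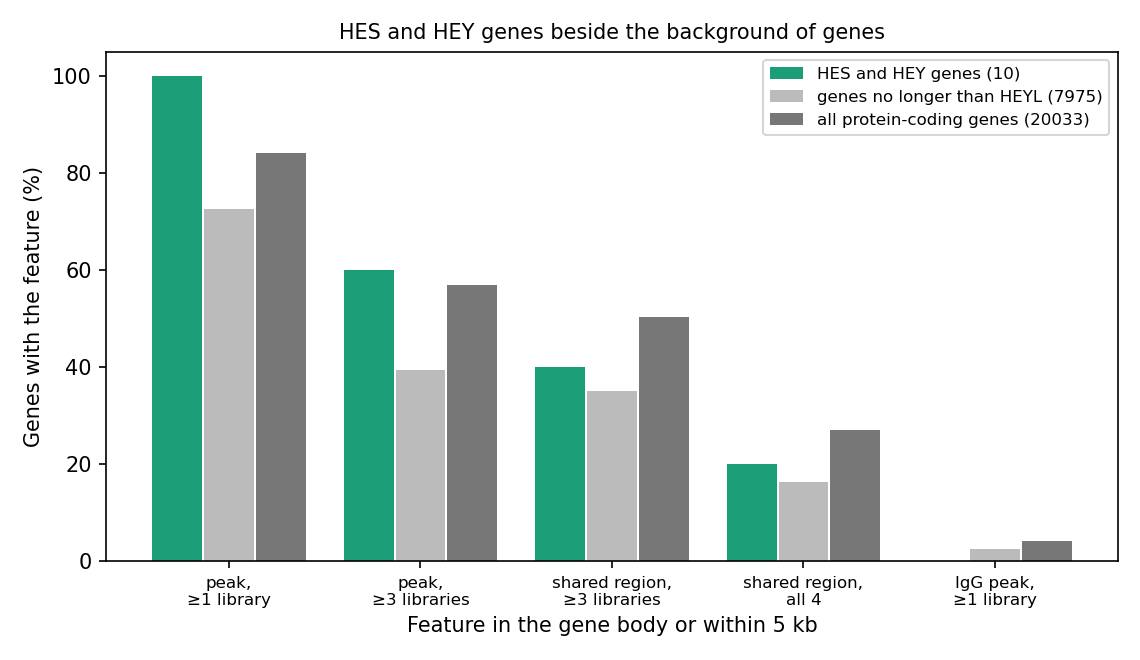
Share of genes (%) with each feature in the gene body or within 5 kb, for the 10 HES and HEY genes, for protein-coding genes no longer than HEYL and for all protein-coding genes. The members lie above the shorter genes and on both sides of all genes for the MYT1L features, and 10 genes allow steps of 10 percentage points only.

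Position along the gene was read for the 9 members with a start in the table. Of their 29 MYT1L peaks, 14 (48.3%, 95% Wilson interval 31.4% to 65.6%, counting error only) had a summit within 1 kb of the start. Peaks of several libraries at 1 site were counted separately, so the interval does not measure the spread between genes or libraries. Over all protein-coding genes with a start, 50.5% of 62198 gene and peak pairs did. HEY2 had such a summit in 4 libraries, HES2, HES7 and HEYL in 2, HES4, HES5 and HES6 in 1, and HES1 and HES3 in 0. At least 1 library had a summit there at 7 of the 9 members and at 69% of all genes. At least 3 libraries did at 1 of 9 and at 42%, and all 4 at 1 of 9 and at 22.4%. Over the promoter window of 300 bases (250 before the start and 50 after it), peaks of all 4 MYT1L libraries lay at HEY2 alone among the 9, against 16.5% of all promoters. HES4, HES5, HES6 and HEYL each had a peak of 1 library over it, which makes 5 of 9 with at least 1 library against 62% of all promoters, and HES1, HES2, HES3 and HES7 had none.

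Many member peaks stood on a raised local background. In MYT1L replicate 4 the median local background at the 17 member peaks was 5.77 overlapping fragments, against 1.93 over all its peaks and 0.895 genome-wide. The medians at member peaks were 3.30, 0.963 and 2.47 in replicates 1, 2 and 3, against 1.81, 0.748 and 1.51 over all peaks. The pileups at the member summits ran from 7 to 51 fragments, and the folds from 2.72 to 11.0. Of the 35 member peaks, 11 had a fold above the median of their own list, which was 4.92, 5.56, 5.17 and 5.55 in replicates 1 to 4. HES7 and HES4 had the highest local backgrounds, 7.75 and 7.36, both in replicate 4, while the strongest HEY2 peak stood on 1.18. The part of the raised background in the low folds was not tested.

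**Figure D4:**
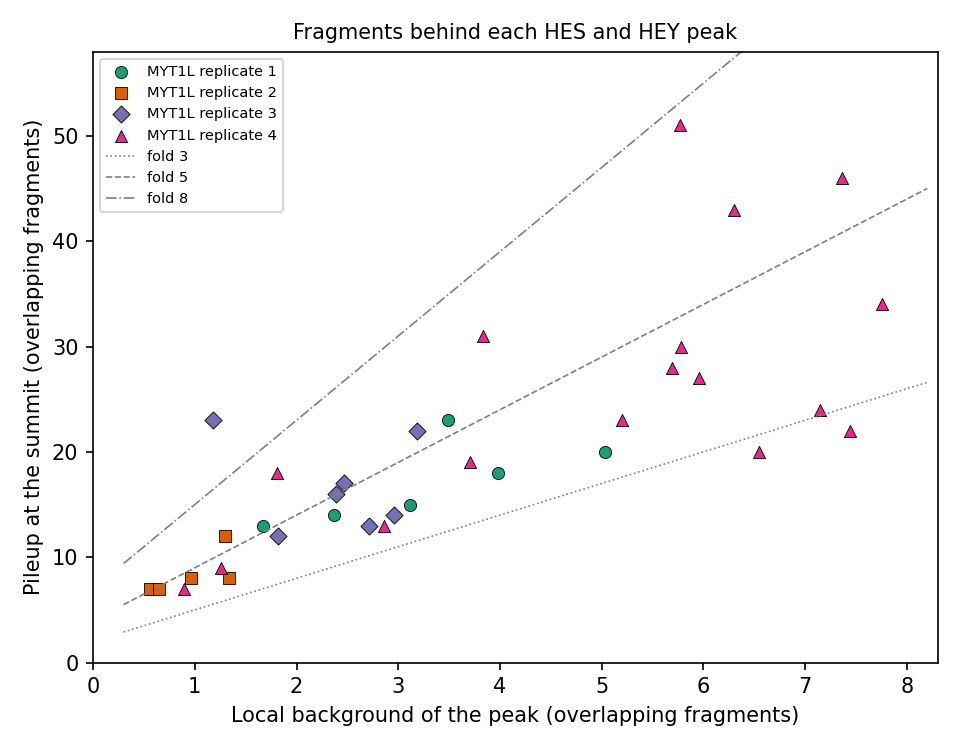
Pileup at the summit against local background, both in overlapping fragments, for the 35 MYT1L peaks at HES and HEY genes, 1 point per peak and 1 symbol per library, with lines of equal fold. Most peaks of replicate 4 lie at a background above 2, and the 1 point above the line of fold 8 is HEY2 in replicate 3.

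The rest of the pathway was counted in the same way. Of 9 Notch receptors and ligands, all had a MYT1L peak in at least 1 library, against 84.1% of all genes. A region in at least 3 libraries was found at 4 of them, against the 50.3% of all genes given above. These were NOTCH2 (highest fold 8.35 ± 1.71, SD, n = 4), NOTCH4 (6.41 ± 0.965, n = 4), DLL3 (5.90 ± 1.08, n = 4) and DLL1 (4.39 ± 0.255, n = 3). Of 8 nuclear partners of Notch, 6 had such a region, against the same 50.3% of all genes. They were RBPJ (7.14 ± 1.02, n = 4), the coactivators MAML1 (7.04 ± 0.845, n = 3) and MAML3 (8.61 ± 2.30, n = 4), and the HES-binding corepressors TLE1 (5.55 ± 0.579, n = 4), TLE3 (4.80 ± 1.72, n = 3) and TLE4 (4.97 ± 0.931, n = 4). These genes are mostly far longer than the members, and the share among genes of like length was not computed. The values take the highest peak of each library anywhere in the window, and n is the number of libraries with a peak. No single region at RBPJ or TLE4 held peaks of all 4 MYT1L libraries. Of 8 genes listed as proneural, some of which HES proteins repress, 6 had a MYT1L peak in at least 1 library. The share was 84.1% of all genes and 72.6% of those no longer than HEYL. The remaining 2 of the 8, NEUROG3 and NEUROD4, had none. A region in at least 3 libraries was found at 0 of these 8, against 50.3% of all genes and 35% of those no longer than HEYL. ATOH1 had peaks in all 4 MYT1L libraries and NEUROG1 in 3, but not in 1 region shared by at least 3. NEUROG2 was the one gene of these lists with an IgG peak, of fold 6.09 in IgG replicate 1. Of 3 related bHLH genes, 1 had a region in at least 3 libraries, BHLHE41 (5.04 ± 0.892, n = 3). This again stands against 50.3% of all genes and 35% of those no longer than HEYL.

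The genes with the most similar highest folds over the 6 libraries, by Euclidean distance, were RASAL3 (distance 0.152) and ALOX15 (0.403) for HES1, and SSBP3 (0.269) and FAM181B (0.282) for HEY1. For HES5 they were PANK4 (distance 0, from the same peaks) and ABHD16B (0.241). HEY2 had no gene as close, and its nearest were ABCC5 (1.83) and LTAP1 (2.14).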

How the data were processed

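CUT&RUN peak lists of 4 MYT1L and 2 IgG libraries were used, grouped and numbered by their titles. Peak names in the MYT1L lists have numbers 1 higher than those titles, so a replicate number may not be that of the bench. MACS2 and the build hg38 are named in the submitters' processing notes; aligner, threshold and control library are not given in the sources used here. The authors deposited for each peak a fold over background (a ratio), a −log10 p, a −log10 q and a score, which equals 10 times the −log10 q.

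From these lists, peaks sharing at least 1 bp with a gene body extended by 5 kb were assigned to that gene (Python 3.11.15, pandas 2.3.3, scipy 1.17.1). MYT1L peaks joined by overlap formed a region, identical to bedtools 2.31.1. Whole-number pileups were accepted within 0.0002 of the −log10 p, for peaks up to a −log10 p of 200. The genome-wide background is the lowest value shared by at least 10 peaks. Simulated peaks gave back 100% of 3783 pileups. Thinning to the IgG depth used binomial chances and the lowest −log10 p of the IgG list. Gene-level values were tested by exact permutation with Benjamini-Hochberg adjustment over all genes. All members are named, as are other pathway genes where a region of at least 3 libraries was found and some proneural genes without one. The 2 nearest genes by fold are named for each member with such a region. Members and lists were chosen with earlier results of these data known. A planned comparison of protein sequences was not run, and 1 gene of a planned list is not reported here. Total read numbers are unknown.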

Additional observations from a re-analysis of the deposited data

Results flagged for a closer look

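In 5 of 12 quantities, 1 MYT1L library lay far from the other 3, by the gap to the nearest of them relative to the whole range. Chance flags about 1 in 20 groups of continuous values. That rate does not apply to genes with values of 0, which stand for no listed peak and make such gaps easier to reach. Where only 1 library has a peak, as at HES6 and HES3, the flag was fixed in advance. MYT1L replicate 4 held 17 member peaks, against 6, 5 and 7 in replicates 1 to 3. It was the sole library with a peak at HES6 (fold 6.63) and at HES3 (fold 4.25). For HES1 the library that stood apart was replicate 1, with 0 where the others had folds of 4.03 to 4.61. For HEYL it was replicate 3, with 0 where the others had 4.44 to 4.86. Different libraries thus stood apart at different genes.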

How the results depend on the processing

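IgG libraries had 0 members with a peak under each of the 6 settings of window, overlap and threshold tried. Of these, only the window of 10 kb could have added a peak. The others could only keep or remove peaks, so their 0 was fixed by the main count. The mean number of members with a MYT1L peak less that of IgG, 6.5, came to 3.5 when a −log10 q of 5 was required and to 4 when each MYT1L list was limited to its top 12310 peaks, both of which leave fewer peaks. It ran from 5.33 (without MYT1L replicate 4) to 7 over the 6 fits without one library. With the replicate number as a block (numbers 1 and 2 in both groups) it was 5.5, and as no label says what the numbers share, the pairing is by number only. The number of members with a shared region, 4, was 2 (HEY1 and HEY2) when all 4 libraries were required, under the stricter −log10 q, and with lists of equal length. The share of all genes, 50.3%, also fell under these settings, to 27.1%, 31.3% and 35.9%. Over the fits without one library the range was 4 to 6 members, against 50.3% to 65.3% of all genes. Where a MYT1L library was left out, 2 of the remaining 3 sufficed. The first 4 members by fold shared 3 to 4 genes with the first 4 of each fit without one MYT1L library. The share of summits at the start, 48.3%, was 31.0% within 500 bp and 69.0% within 2000 bp. Over all protein-coding genes, 50.5% within 1 kb became 44.5% and 54.3%. The members' share thus lay below that of all genes at 500 bp and above it at 2000 bp, so the direction depends on the distance chosen. The members' 95% Wilson intervals (counting error only) were 17.3% to 49.2% at 500 bp and 50.8% to 82.7% at 2000 bp. Each includes the share of all genes, so a departure from all genes was not shown at either distance. Besides these moves, 28 alternatives of the counts and 24 of single genes stayed within the spread between libraries or within 1.5 times. Depth limits the IgG result: 10 of the 35 member peaks had a chance above 0.5 of being listed at the depth of IgG replicate 1, and 3 at that of IgG replicate 2.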
